A study of Rattus norvegicus with 9 samples.

Results

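The 6 hippocampal libraries from rats with a stroke were set as 1 average against the 3 control libraries, and the genes described here are those for which all 6 stroke libraries lay above, or all 6 below, the 3 controls. Of 18733 genes in the tables, 14840 had enough counts to be tested, and 762 of those (5.13%) were separated in this way. In 450 genes (3.03%) the stroke libraries were higher and in 312 genes (2.1%) they were lower. Levels are in CPM, counts scaled to a common library size with TMM factors (a trimmed mean that sets aside extreme genes), and this placement of libraries is a description, since it uses the same values as the contrast. The difference between the stroke groups was not used to choose the genes. It is limited by the choice all the same: a gene whose taVNS libraries lay within the control range cannot be among them.

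All rats were male. The control rats were fed normally. The rats with post-stroke cognitive impairment (PSCI) had middle cerebral artery occlusion (MCAO), a surgical model of ischaemic stroke, and were then fed normally for 2 weeks. The taVNS rats had the same operation and impairment and received transcutaneous auricular vagus nerve stimulation, in which current is passed through the skin of the ear to a branch of the vagus, for 14 days. Both stroke groups therefore share the occlusion and the selection of impaired animals, by an alternation rate and a cognitive index set against the control mean, with random allocation afterwards. The labels name no sham operation, no sham stimulation, no hemisphere and no strain or age, and the extraction text speaks of mice where every other label gives the rat. Nothing beyond the numbered titles and the extraction text says that the 3 libraries of a group came from 3 animals, so p-values measure the spread between these libraries.

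Ischaemia of the territory of the middle cerebral artery kills neurons, and in the weeks that follow microglia, blood-borne macrophages and astrocytes take up debris, make complement proteins and present antigen. Complement is a cascade in which C1q starts the classical path, C2 and C4 carry it to C3, and fragments of C3 tag material for uptake through receptors on phagocytes. Immediate early genes are the first genes that neurons transcribe after firing, and their basal level in the hippocampus follows recent activity.

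The libraries held 13747389 to 15415694 estimated counts. On principal component 1 (48.2% of the variance of log2 CPM) taVNS lay next to control (-24.5 to -7.41 against -36.2 to -29.6) and PSCI lay apart (19.7 to 74.9). Of the markers of hippocampal cells, 9 of 10 dentate granule cell markers and 8 of 10 CA pyramidal cell markers passed the filter on counts. PSCI replicate 2 and taVNS replicate 3 had the highest meningeal and fibroblast markers, which averaged 4.85 and 5.21 log2 CPM there, against 2.39 as the lowest library. With those libraries left out, 608 genes were separated higher and 650 lower, among them 416 of the 450 and 311 of the 312. Of the named genes described below, C3, C4a, Glipr1, Pth1r, Luzp2, Ttpa, Gabrg1 and Lrrc25 then lost their call in the stroke average (adjusted p = 0.0502 to 0.0788). Mmp19, Fes, Irf8 and Itgam lost theirs between taVNS and PSCI (adjusted p = 0.0524 to 0.114). No 2 libraries held identical values.

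In edgeR's quasi-likelihood test of the stroke average against control, 114 of the 14840 genes (0.768%) passed an adjusted p of 0.05, 100 higher (0.674%) and 14 lower (0.0943%). Of the separated genes 71 passed this test as well, 61 higher (0.411% of all tested genes) and 10 lower (0.0674%). The remaining separated genes, 389 higher and 302 lower, did not pass, and 43 genes passed without being separated. A gap of at least 1 on the log2 CPM scale between the nearest stroke and the nearest control library was seen for 3 higher genes (Spp1, Aspg and Cd8a) and 1 lower gene (Egr2), and a gap of at least 0.5 for 29 and 3. These 4 names were picked by their gap, and Cd8a had no count in any control library. Changes were larger upward: 203 of the 450 higher genes and 12 of the 312 lower genes differed at least 2-fold in the average.

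The calls rested on few libraries. Of the 71 genes, 11, 4 and 6 were still called and separated without control replicate 1, 2 or 3, and 71, 70 and 21 without PSCI replicate 1, 2 or 3. The counts were 51, 16 and 24 without taVNS replicate 1, 2 or 3. When the 6 stroke libraries were fitted as 1 group, so that the difference between PSCI and taVNS became part of the spread, edgeR called 0 genes, with 1539 at an unadjusted p under 0.05. DESeq2, with the groups kept apart, called 806, and limma-voom 39. The balance of higher and lower separated genes also moved with the scaling. With TMM 59.1% of the separated genes were higher, with total counts alone 76.8% and with the deposited RPKM 77.2%.

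At the edge of the rule, the nearest libraries almost touched. Serping1, Agt and Tirap were just inside, with gaps of 0.01, 0.02 and 0.02 on the log2 CPM scale, and Enho, Bcl2l2 and S1pr3 just outside, with overlaps of 0.01, 0.01 and 0.02. Tirap, an adaptor of Toll-like receptors, read 5.04, 5.17 and 4.85 CPM in control, 25.6, 24.7 and 26 in PSCI and 5.47, 5.25 and 6.01 in taVNS. It counts as separated although its taVNS libraries stood close to the controls. S1pr3, a sphingosine phosphate receptor of reactive astrocytes, read 7.11, 7.93 and 5.58 CPM in control, 44.8, 66.7 and 61.2 in PSCI and 7.85, 10.5 and 11.4 in taVNS and does not count.

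For the separated genes the stroke groups were then compared with each other. taVNS differed from PSCI in 127 of the 762 genes by edgeR's test, against 854 (5.75%) of all tested genes, 729 lower in taVNS (4.91%) and 125 higher (0.842%). In 116 of them stroke was higher and taVNS was lower than PSCI, and in 11 stroke was lower and taVNS was higher than PSCI. With taVNS farther from control than PSCI, edgeR called 0 separated genes (2 at an unadjusted p under 0.05), and DESeq2 and limma-voom called 0. By group means, taVNS lay between control and PSCI in 407 of the 450 higher genes and 259 of the 312 lower genes. The median log2 change from control was 1.26 in PSCI and 0.51 in taVNS for the higher genes, and -0.32 and -0.21 for the lower genes; these pairs share the control libraries. The rule that chose the genes sets the signs of these medians. The medians over all tested genes, both within 0.01 of 0, are therefore no test of them.

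**Figure D1:**
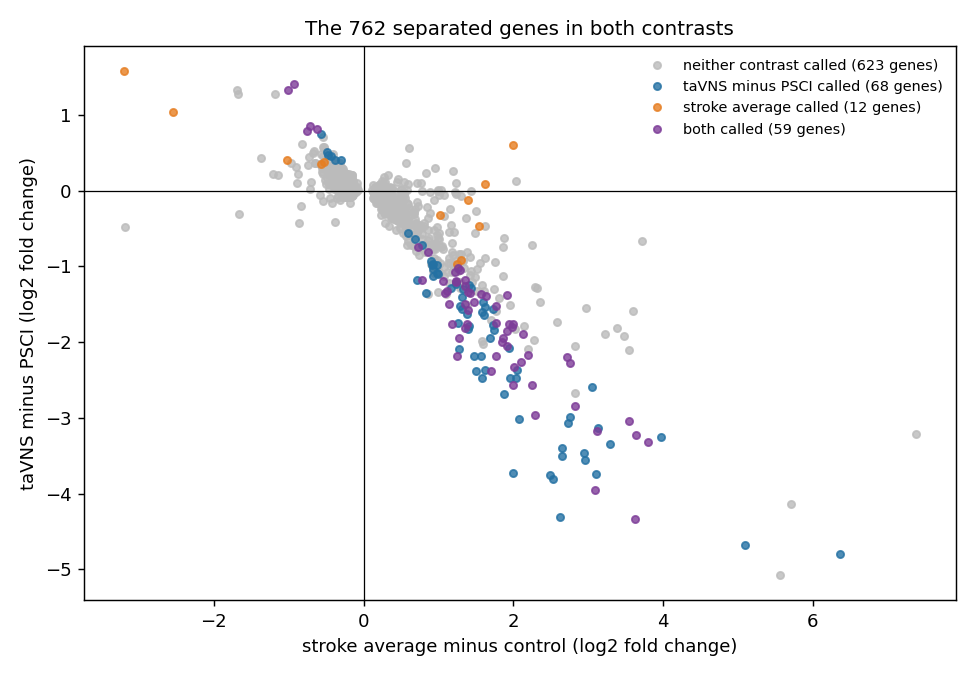
Log2 change of the stroke average from control (horizontal axis) against the log2 difference between taVNS and PSCI (vertical axis) for the 762 separated genes, 1 point per gene, coloured by which of the 2 contrasts passed an adjusted p of 0.05 in edgeR. Most points right of 0 lie below the horizontal line: 59 genes were called in both contrasts, 68 in the taVNS against PSCI contrast alone, 12 in the stroke average alone and 623 in neither.

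Among the 71 genes that were both separated and called, 59 differed between taVNS and PSCI, and 12 did not pass that test. The 12 were C2, C3, C4a, Bst2, Pth1r, Asap3 and Cfap65, which were higher after stroke, and Egr2, Npas4, Nr4a2, Luzp2 and Gabrg1, which were lower. A test that did not pass does not show that the groups were alike. The 95% interval of taVNS minus PSCI lay within 1.5-fold either way for none of the 71 genes and for 338 of all 762. Against control, edgeR called 1461 genes (9.85%) in PSCI and 0 in taVNS, where 557 had an unadjusted p under 0.05 and DESeq2 called 9.

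**Figure D2:**
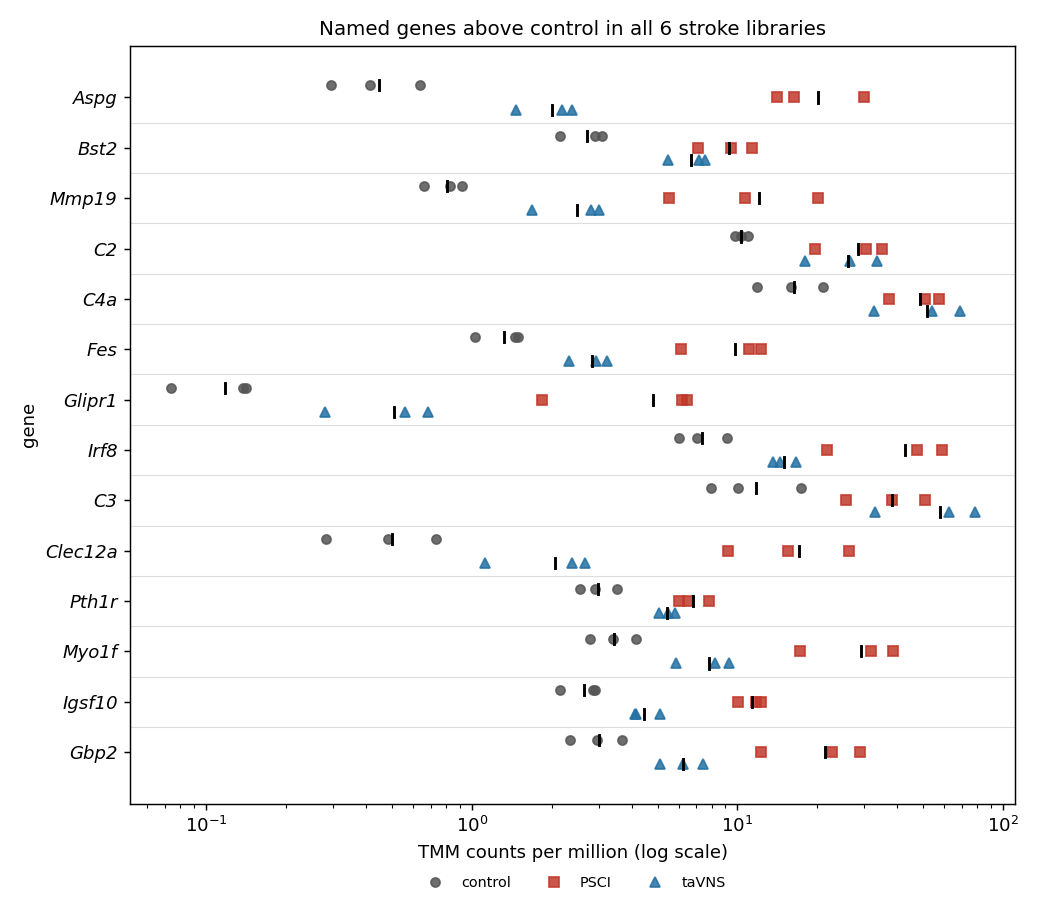
TMM CPM (log scale) of the 14 higher genes with the widest gap under the rule for named genes, 1 point per library, 3 libraries per group; vertical ticks are arithmetic means. All taVNS and PSCI points lie right of the control points. The taVNS points lie left of all PSCI points for most genes and mix with them for Bst2, C2, C4a and C3.

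The complement list held 5 of the 71 called and separated genes, more than any other of the 49 lists. Of its 18 tested members, 7 rose in the stroke average (C1qa, C1qb, C1qc, C2, C3, C4a and Serping1), none fell, and 6 were separated higher (C1qa, C2, C3, C4a, Serping1 and Itgb2), against 0.674% called higher and 3.03% separated higher of all tested genes. Between taVNS and PSCI edgeR called 9 of the 18, all lower in taVNS, against 4.91% of all tested genes, and the list's median of taVNS minus PSCI was -1.19. The list's median log2 change was 1.29, against 0.01 over all tested genes. Its summed level was 310.4 to 369 CPM in control, 723 to 1061 in PSCI and 394 to 547 in taVNS, with no overlap between control and either stroke group. In bulk tissue, more cells of a type and more RNA per cell cannot be told apart.

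C1qa, a chain of the initiator C1q that microglia make, read 38.6, 37 and 31.9 CPM in control, 97.1, 139 and 104 in PSCI and 49, 42 and 58.3 in taVNS. The change in the stroke average was 1.07 ± 0.15 (SE), adjusted p = 0.0184, a 2.1-fold rise. All taVNS libraries lay above control and below every PSCI library, and taVNS minus PSCI was -1.19 ± 0.16 (SE), adjusted p = 0.00575. C1qb and C1qc, the other chains, also rose in the average (1.12 and 1.27 on the log2 scale) but were not separated, because taVNS overlapped control. C1qc read 21.3, 18.1 and 12.9 CPM in control and 19.3, 18.8 and 25.3 in taVNS.

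C2 (NCBI gene 24231), the protease of the classical convertase, read 11, 9.77 and 10.3 CPM in control, 19.6, 35 and 30.5 in PSCI and 17.9, 26.6 and 33.5 in taVNS. The stroke groups covered much the same range, and neither came near control. The average change was 1.39 ± 0.24 (SE), adjusted p = 0.0374, and taVNS minus PSCI was -0.13 (95% interval -0.69 to 0.44; adjusted p = 0.826). C4a (NCBI gene 24233), the other component of that convertase, read 11.9, 21 and 15.9 CPM in control, 50.9, 57.5 and 37.2 in PSCI and 32.7, 68.8 and 54.1 in taVNS. Its average change was 1.62 ± 0.28 (SE), adjusted p = 0.0374, and taVNS minus PSCI was 0.09 (95% interval -0.56 to 0.75). C4a has a near-identical copy, C4b, which read 1.04, 1.56 and 0.367 CPM in control, 2.39, 3.51 and 2.28 in PSCI and 1.05, 1.89 and 1.98 in taVNS and did not pass (adjusted p = 0.268), and reads may have been split between the copies. C2 also lies beside Cfb, the matching protease of the alternative path, which was not separated (log2 change 0.85, adjusted p = 0.339).

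C3 (NCBI gene 24232), the component at which the paths meet, read 10.01, 17.4 and 7.93 CPM in control, 25.6, 50.6 and 38.2 in PSCI and 32.9, 78.5 and 62.8 in taVNS. The 3 controls were below all 6 stroke libraries, and 2 of the taVNS libraries were higher than any PSCI library. The average change was 2.00 ± 0.37 (SE), adjusted p = 0.0495, a 4-fold rise. taVNS minus PSCI was 0.61 with a 95% interval of -0.24 to 1.45 (adjusted p = 0.398). C3 and C4a were the only ones of the 61 called higher genes with a taVNS mean above the PSCI mean. With PSCI replicate 2 and taVNS replicate 3 left out, the log2 changes of C3 and C4a were 1.83 and 1.53 and no longer called (adjusted p = 0.0685 and 0.0583).

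The inhibitor of the cascade and a receptor chain lay lower in taVNS than in PSCI. Serping1, the C1 inhibitor, read 2.48, 3.82 and 2.13 CPM in control, 37, 48.3 and 34.3 in PSCI and 3.85, 8.11 and 14.1 in taVNS, and taVNS replicate 1 lay just above the highest control. It rose by 2.72 ± 0.40 (SE), adjusted p = 0.0221, and taVNS minus PSCI was -2.20 ± 0.40 (SE), adjusted p = 0.016. Itgam, the alpha chain of complement receptor 3 on microglia and macrophages, read 11.7, 8.5 and 5.14 CPM in control, 36.1, 60.03 and 58.8 in PSCI and 15, 23.4 and 21.5 in taVNS. It rose by 1.92 ± 0.29 (SE), adjusted p = 0.0231, and taVNS minus PSCI was -1.37 ± 0.30 (SE), adjusted p = 0.0329. Itgb2, its beta chain, was separated (7.59, 7.15 and 7.13 CPM in control, 17.6, 42 and 28.8 in PSCI and 11.2, 11.3 and 10.8 in taVNS) and just missed the test of the average (adjusted p = 0.0515).

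**Figure D3:**
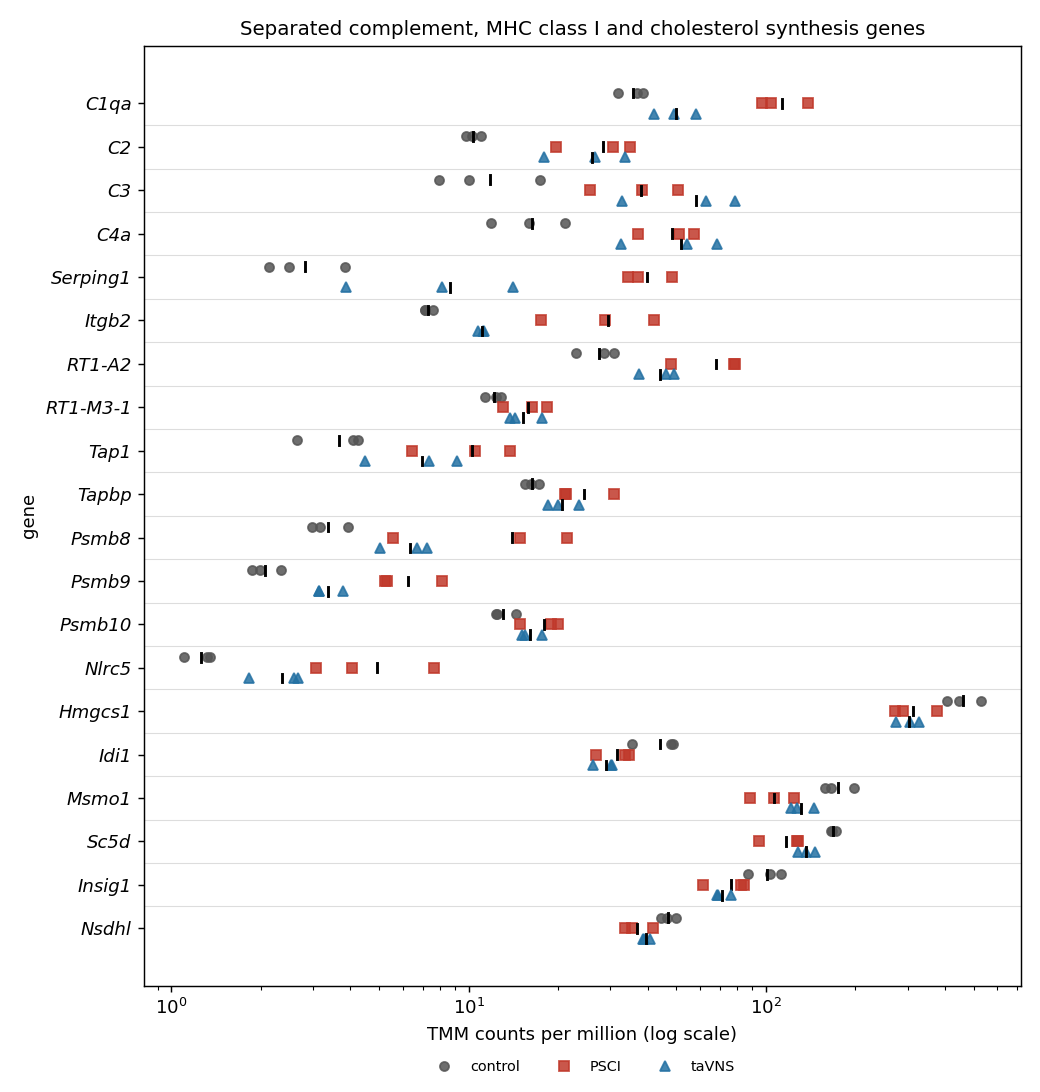
TMM CPM (log scale) of the separated members of 3 lists, complement (C1qa to Itgb2), MHC class I with the immunoproteasome (RT1-A2 to Nlrc5) and cholesterol synthesis (Hmgcs1 to Nsdhl), 1 point per library, 3 libraries per group; vertical ticks are arithmetic means. Control points lie left of all stroke points for the first 14 genes and right of all stroke points for the last 6.

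Class I molecules show peptides, cut by the immunoproteasome, at the cell surface. Of 14 tested members of the list of MHC class I and immunoproteasome genes, 8 were separated higher and none lower, while 3.03% of all tested genes were. In the average edgeR called 0 of the 14, with 11 at an unadjusted p under 0.05, DESeq2 called 7 and limma-voom 0. Between taVNS and PSCI edgeR called 0 (4 at an unadjusted p under 0.05), DESeq2 1 and limma-voom 0. The list's median log2 change was 0.69, with 0.91 in PSCI and 0.43 in taVNS. The 8 are RT1-A2 and RT1-M3-1, class I heavy chains; Tap1 and Tapbp, which load peptide; Psmb8, Psmb9 and Psmb10, the inducible subunits of the proteasome; and Nlrc5, the activator of class I transcription. B2m, the light chain, was not separated.

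Psmb9 read 1.86, 2.34 and 1.98 CPM in control, 5.32, 8.16 and 5.22 in PSCI and 3.78, 3.15 and 3.14 in taVNS, so that both stroke groups lay clear of control and PSCI clear of taVNS. Its average change was 1.15 ± 0.22 (SE), adjusted p = 0.0568. Nlrc5 read 1.1, 1.35 and 1.32 CPM in control, 3.07, 7.65 and 4.05 in PSCI and 1.82, 2.59 and 2.66 in taVNS, with the same order of groups and no overlap. RT1-A2 read 28.6, 31 and 22.9 CPM in control, 47.8, 78 and 78.6 in PSCI and 37.4, 49.2 and 46 in taVNS, and its change of 1.00 ± 0.18 came with an adjusted p of 0.0515. Class I genes of the rat are a family of near copies, so the counts of single RT1 genes are uncertain. Tap1 read 4.07, 4.25 and 2.64 CPM in control, 6.48, 13.8 and 10.5 in PSCI and 4.48, 7.34 and 9.15 in taVNS, where taVNS replicate 1 stood close to the highest control.

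Bst2 (tetherin, NCBI gene 378947), an interferon-induced membrane protein that holds back budding virus, read 2.14, 2.9 and 3.09 CPM in control, 7.09, 11.3 and 9.46 in PSCI and 5.47, 7.13 and 7.51 in taVNS. Control and stroke libraries did not overlap and the 2 stroke groups did. It rose by 1.54 ± 0.22 (SE), adjusted p = 0.0205, a 2.91-fold change, and taVNS minus PSCI was -0.47 (95% interval -0.99 to 0.05). Gbp2, an interferon-induced guanylate-binding protein, read 2.97, 3.68 and 2.35 CPM in control, 12.3, 28.8 and 22.7 in PSCI and 5.11, 6.22 and 7.45 in taVNS and rose by 1.94 ± 0.30 (SE), adjusted p = 0.0255. Here every PSCI library was above every taVNS library, and taVNS minus PSCI was -1.76 ± 0.31 (SE), adjusted p = 0.015. Irf8, a transcription factor of microglia and of interferon responses, read 9.11, 7.01 and 6.02 CPM in control, 21.7, 59 and 47.5 in PSCI and 13.7, 14.4 and 16.7 in taVNS and rose by 1.77 ± 0.31 (SE), adjusted p = 0.0394. The list of 20 interferon-induced genes had 3 members called higher and 2, Gbp2 and Bst2, separated higher, against 0.674% and 3.03% of all tested genes. Mx1, Isg15 and Irf7, classical interferon targets, overlapped between the 3 groups. Isg15 read 1.31, 1.2 and 0.661 CPM in control, 2.52, 1.72 and 1.04 in PSCI and 1.19, 1.89 and 3.48 in taVNS.

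Promoters of the class I genes and of Bst2 are shown because these genes lay above control together, and because a search of letters in promoters found one motif in several of them. The sequences are RefSeq's for the assembly GRCr8, from 250 bases before to 50 after the annotated start of the gene, while the counts were made on another build. Promoters were found for 7 of the 8 class I genes. The letters GAAA, any 2 bases and GAAA again, on either strand, which are the core of the interferon-stimulated response element (ISRE), was in 4 of the 7 (Tap1, Tapbp, Psmb8 and Psmb10) and in 351 of 12016 promoters of genes in the tables (2.92%). The 5 motifs (this one, TTCNNNGAA, TGACGTCA, TCACNCCAC and the CArG box) were searched in 4 groups of genes, and these promoters were chosen after the search. In the lines below capitals mark the motif on either strand; matches can overlap. The windows are chr20:4668494-4668793 on the minus strand for Tap1, chr19:50743243-50743542 on the minus strand for Psmb10 and chr16:18254918-18255217 on the minus strand for Bst2.
Tap1: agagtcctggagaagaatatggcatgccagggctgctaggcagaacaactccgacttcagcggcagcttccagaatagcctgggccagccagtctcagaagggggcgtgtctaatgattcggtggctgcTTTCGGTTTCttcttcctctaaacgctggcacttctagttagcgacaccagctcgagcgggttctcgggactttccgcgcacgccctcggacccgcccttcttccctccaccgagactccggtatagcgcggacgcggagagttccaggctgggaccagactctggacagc
Psmb10: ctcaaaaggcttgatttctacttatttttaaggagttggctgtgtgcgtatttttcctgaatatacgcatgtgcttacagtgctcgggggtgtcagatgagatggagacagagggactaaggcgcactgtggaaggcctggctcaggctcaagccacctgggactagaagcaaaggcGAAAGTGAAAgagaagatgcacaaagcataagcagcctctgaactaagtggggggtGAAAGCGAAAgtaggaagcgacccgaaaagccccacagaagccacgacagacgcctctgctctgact
Bst2: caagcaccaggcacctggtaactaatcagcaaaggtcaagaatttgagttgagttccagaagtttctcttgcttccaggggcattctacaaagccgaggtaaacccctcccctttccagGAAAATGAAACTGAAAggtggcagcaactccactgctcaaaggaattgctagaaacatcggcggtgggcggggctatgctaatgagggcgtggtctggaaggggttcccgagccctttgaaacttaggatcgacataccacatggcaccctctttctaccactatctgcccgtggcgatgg
Tap1 holds 1 match, Psmb10 2 and Bst2 2 that overlap. The motif TTCNNNGAA, the gamma-activated site, was in 2 of the 7 class I promoters (RT1-M3-1 and Psmb8) and in 6.67% of all promoters. A match of letters is a description of the sequence, not evidence of a bound site.

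Among markers of phagocytic microglia and macrophages, 10 of 19 tested were separated higher: Cd68, Lgals3, Gpnmb, Spp1, Itgax, Clec7a, Tyrobp, Fcer1g, Aif1 and Itgam, against 3.03% of all tested genes. Itgam alone passed the test of the average. Against control edgeR called 15 of the 19 higher and 1 lower in PSCI, where 9.85% of all tested genes were called in either direction. Between taVNS and PSCI it called 12 lower and 1 higher in taVNS, against 4.91% and 0.842% of all tested genes. The summed list overlapped between all groups, at 3425 to 4270 CPM in control, 2991 to 5431 in PSCI and 3534 to 3936 in taVNS. That sum is weighted by abundant members: Apoe had up to 45023 counts in a library, Cd68 at most 195. The list's mean log2 CPM did not overlap, at 2.82 to 3.28 in control, 4.66 to 6.62 in PSCI and 3.57 to 4.40 in taVNS. Spp1 (osteopontin), a secreted protein of phagocytes, read 0.966, 0.354 and 0.441 CPM in control, 17, 496 and 267 in PSCI and 2.38, 9.86 and 15.7 in taVNS. Its PSCI libraries differed widely, and the average change of 6.36 ± 1.35 did not pass (adjusted p = 0.073). Lgals3 (galectin-3) read 0.414, 0.779 and 0.0735 CPM in control, 16, 143 and 65.5 in PSCI and 1.33, 2.1 and 5.33 in taVNS and Cd68, a lysosomal protein of macrophages, 0.414, 0.708 and 0.22 CPM in control, 1.91, 12 and 12.7 in PSCI and 1.33, 2.24 and 4.03 in taVNS. In each of these 3 genes PSCI replicate 1 was the lowest PSCI library, and for Cd68 it lay within the taVNS range.

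Aif1, the microglial protein Iba1, moved less, with 13, 9.63 and 12.9 CPM in control, 23.7, 43.8 and 31.1 in PSCI and 15.6, 15.6 and 18.9 in taVNS. Of the 11 markers of homeostatic microglia 1 was separated higher, against 3.03% of all tested genes. This was Cx3cr1, the fractalkine receptor (15.4, 14.2 and 9.4 CPM in control, 20.4, 30.8 and 25.7 in PSCI and 15.9, 19.5 and 20.9 in taVNS). The summed level of those 11 markers was 324 to 388 CPM in control, 391 to 594 in PSCI and 412 to 474 in taVNS, so all 6 stroke libraries also lay above control in this sum. Their mean log2 CPM was 4.08 to 4.40 in control, 4.30 to 4.94 in PSCI and 4.44 to 4.81 in taVNS, so PSCI overlapped control there. The part of microglial number in the changes above was not tested. Tmem119, a defining marker of resident microglia, read 22.8, 21.2 and 16 CPM in control, 14, 14.9 and 11.7 in PSCI and 29.4, 19.9 and 29 in taVNS, lowest in PSCI. The summed T cell markers were 4.25 to 10.9 CPM in control, 13.2 to 24.8 in PSCI and 7.65 to 18.0 in taVNS, with 4 of 12 markers above the filter on counts.

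Other named genes of myeloid cells rose in the average and were lower in taVNS than in PSCI. Clec12a, an inhibitory lectin of myeloid cells, read 0.483, 0.283 and 0.735 CPM in control, 9.2, 26.3 and 15.5 in PSCI and 1.12, 2.66 and 2.39 in taVNS and rose by 3.55 ± 0.50 (SE), adjusted p = 0.0201. Cd14, the co-receptor for lipopolysaccharide, read 0.276, 0.283 and 0.441 CPM in control, 12.5, 28.6 and 15.5 in PSCI and 0.561, 1.26 and 0.956 in taVNS. It rose 12.3-fold in the average (adjusted p = 0.00963) and had the widest called difference between the stroke groups among the named genes, -4.33 ± 0.40 (SE), adjusted p = 0.000872. Its control level rests on few counts, at 0.441 CPM or below in each library. Csf3r, the receptor for granulocyte colony-stimulating factor, read 2.97, 2.62 and 2.94 CPM in control, 11.5, 15.8 and 12.3 in PSCI and 3.78, 5.25 and 5.19 in taVNS and rose by 1.47 ± 0.18 (SE), adjusted p = 0.0106. It is on the list of neutrophil markers, but the other 7 members found were below the filter, with at most 20 counts in any library.

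Fes, a tyrosine kinase of myeloid cells, read 1.45, 1.49 and 1.03 CPM in control, 6.13, 12.2 and 11 in PSCI and 2.31, 3.22 and 2.94 in taVNS and rose by 1.98 ± 0.29 (SE), adjusted p = 0.0205. Myo1f, a myosin of leukocytes, read 4.14, 3.4 and 2.79 CPM in control, 17.2, 38.4 and 31.7 in PSCI and 5.89, 8.25 and 9.29 in taVNS and rose by 2.13 ± 0.29 (SE), adjusted p = 0.0175. For both, the groups followed the order control, taVNS, PSCI with no overlap. RT1-DMb, a chain of the protein that loads peptide on MHC class II, read 10.8, 11.5 and 9.55 CPM in control, 29.9, 55.3 and 47.6 in PSCI and 11.8, 13.1 and 14.3 in taVNS, with taVNS close to control. Its partner RT1-DMa passed the test of the average as well (log2 change 0.67, adjusted p = 0.0374) but its taVNS libraries overlapped control. Lrrc25 and Glipr1 had control levels of at most 0.483 CPM and rose 8.66-fold and 12.5-fold, with adjusted p = 0.0374 and 0.0442. At so few counts these folds are imprecise.

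Of 17 markers of reactive astrocytes 3 were called higher and 4 were separated higher (Vim, Aspg, Cxcl10 and Ptx3), against 0.674% and 3.03% of all tested genes. The separated count was 8 with total counts and 7 with RPKM. Aspg, an asparaginase of reactive astrocytes, read 0.414, 0.637 and 0.294 CPM in control, 14, 29.95 and 16.3 in PSCI and 1.47, 2.38 and 2.19 in taVNS. It rose by 3.80 ± 0.39 (SE), adjusted p = 0.00481, a 13.9-fold change, with the widest gap of the higher named genes (1.05 on the log2 CPM scale). The control level rests on few counts, at 0.637 CPM or below in each library, so the fold is imprecise. On RPKM with a pseudocount of 1 the log2 change of Aspg was 1.84 (limma, adjusted p = 0.0114). Its call held with each of the 9 libraries left out in turn, and it was the one named gene for which that was so. The call was lost with limma-voom (adjusted p = 0.105) and with the 6 stroke libraries as 1 group (edgeR, adjusted p = 0.477). taVNS minus PSCI was -3.32 ± 0.35 (SE), adjusted p = 0.00199, and no taVNS library came within the range of either other group.

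Vim (vimentin), an intermediate filament, read 28.8, 26.5 and 21.3 CPM in control, 488, 1290.4 and 801 in PSCI and 31.4, 41.4 and 94.3 in taVNS. Every PSCI library was far above the highest taVNS library, and taVNS replicates 1 and 2 stood only a little above control. Gfap, the filament that defines reactive astrocytes, was not separated: it read 1196, 1011 and 631 CPM in control, 4095, 7672 and 6553 in PSCI and 854, 1379.8 and 896 in taVNS, so taVNS overlapped control. Its average change of 1.42 ± 0.28 had an adjusted p of 0.0615. The summed reactive list was 753 to 1332 CPM in control, 4900.2 to 10176 in PSCI and 994 to 1543 in taVNS, and Gfap made up most of it. The mean log2 CPM over the 17 markers was 2.02 to 2.32 in control, 4.24 to 6.10 in PSCI and 2.35 to 2.81 in taVNS. By that mean all taVNS libraries lay above control, the lowest only just.

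Of 15 markers of homeostatic astrocytes 3 were separated lower (Aldoc, Gjb6 and Mfge8), and Mfge8 was called, against 2.1% and 0.0943% of all tested genes. Mfge8, a bridge between dying cells and phagocytes, read 148, 161 and 149 CPM in control, 70.3, 88.4 and 66.1 in PSCI and 141, 116 and 139.8 in taVNS. It fell by 0.62 ± 0.11 (SE), adjusted p = 0.0394, and was not separated in the deposited RPKM. Gjb6, a gap junction protein of astrocytes, read 58.2, 54 and 55.5 CPM in control, 49.8, 27.3 and 27.7 in PSCI and 42.3, 34.6 and 47.4 in taVNS, with PSCI replicate 1 above taVNS. Aqp4, Slc1a2 and Gja1 of the same list were not separated, and with total counts or RPKM in place of TMM the list had 1 separated lower member.

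Mmp19, a matrix metalloproteinase, read 0.828, 0.921 and 0.661 CPM in control, 5.52, 20.1 and 10.7 in PSCI and 1.68, 2.8 and 3.01 in taVNS and rose by 2.76 ± 0.46 (SE), adjusted p = 0.0356. Igsf10, an immunoglobulin superfamily protein, read 2.14, 2.9 and 2.86 CPM in control, 10.1, 12.2 and 11.7 in PSCI and 4.13, 5.11 and 4.1 in taVNS and rose by 1.43 ± 0.18 (SE), adjusted p = 0.00987. In both, the groups did not overlap and taVNS lay between control and PSCI. Pth1r, the receptor for parathyroid hormone, read 2.9, 2.55 and 3.53 CPM in control, 6, 7.84 and 6.53 in PSCI and 5.47, 5.81 and 5.06 in taVNS, with the stroke groups side by side. It rose by 1.02 ± 0.18 (SE), adjusted p = 0.0403, and taVNS minus PSCI was -0.32 (95% interval -0.75 to 0.11). Anxa3, an annexin found in microglia, rose by 1.09 ± 0.16 (SE), adjusted p = 0.0205, and Draxin, a guidance protein for axons on the list of immature neurons, by 1.23 ± 0.20 (SE), adjusted p = 0.034. Draxin read 6.69, 6.37 and 5.29 CPM in control, 15.4, 28.3 and 21.7 in PSCI and 8.41, 9.3 and 10.7 in taVNS.

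Of 12 tested genes of ependymal cells and motile cilia, 1 was called higher and 3 were separated higher, against 0.674% and 3.03% of all tested genes. Foxj1, the transcription factor that switches on motile cilia, read 6.14, 5.6 and 4.11 CPM in control, 21.6, 28.6 and 25.8 in PSCI and 7.57, 6.92 and 7.86 in taVNS. It rose by 1.38 ± 0.16 (SE), adjusted p = 0.00781, and taVNS minus PSCI was -1.77 ± 0.17 (SE), adjusted p = 0.00135. Hydin and Cfap126, parts of the cilium, were separated without a call (adjusted p = 0.061 and 0.0626). Cfap65, a cilium protein outside the list, was called and separated with 3.59, 3.12 and 4.04 CPM in control, 9.07, 14 and 13.4 in PSCI and 6.03, 4.83 and 8.4 in taVNS. The other 9 of the 12 tested members were not separated, and the summed list was 165 to 229 CPM in control, 222 to 252 in PSCI and 213 to 274 in taVNS.

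**Figure D4:**
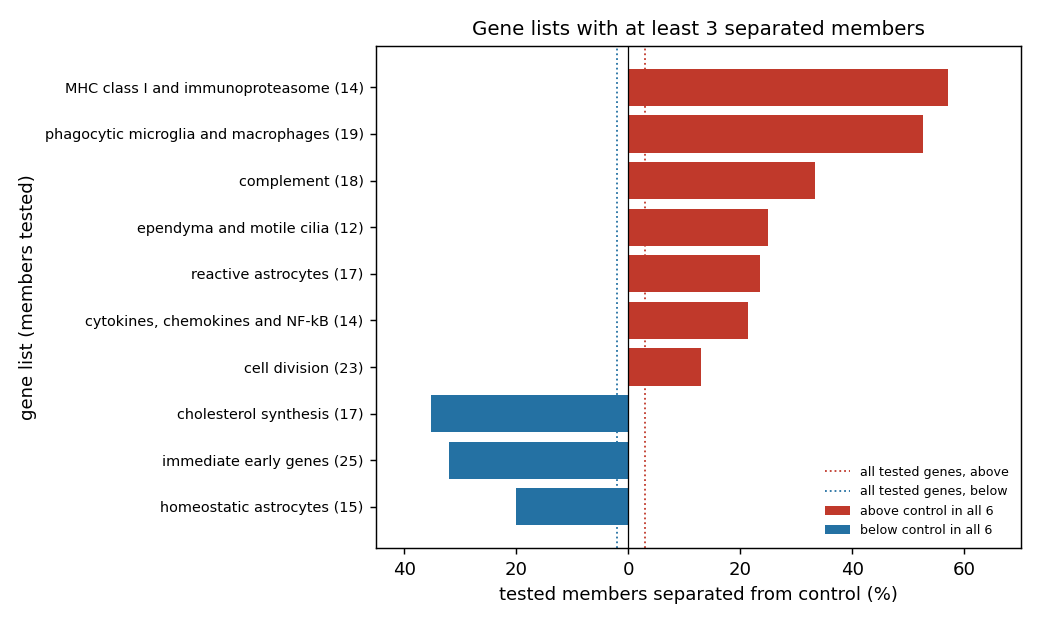
Share of tested members (%) separated above control (red, to the right) or below control (blue, to the left) in the 10 of 49 gene lists with at least 3 separated members; dotted lines give the share over all tested genes (3.03% above and 2.1% below), and the number tested is in brackets. MHC class I (8 of 14) and phagocytic cells (10 of 19) have the longest bars upward, cholesterol synthesis (6 of 17) and immediate early genes (8 of 25) downward.

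Of 25 immediate early genes tested, 8 were separated lower (Egr1, Egr2, Arc, Npas4, Nr4a1, Nr4a2, Dusp5 and Homer1), none higher, and 3 were called (Egr2, Npas4 and Nr4a2), against 2.1% and 0.0943% of all tested genes. With total counts or RPKM 7 and 6 were separated lower. Between taVNS and PSCI edgeR called 0 of the 25 (6 at an unadjusted p under 0.05), DESeq2 2 and limma-voom 0. The list's median log2 change was -0.51 in PSCI and -0.56 in taVNS, 2 values that share the controls. Its summed level was 1059 to 1218 CPM in control, 702 to 1036 in PSCI and 769 to 858 in taVNS, without overlap between control and stroke.

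Egr2 (NCBI gene 114090), a zinc finger transcription factor, read 9.87, 8.15 and 9.4 CPM in control, 0.273, 1.66 and 1.31 in PSCI and 1.19, 2.73 and 2.8 in taVNS. It had the widest gap of all lower genes (1.5 on the log2 CPM scale), and every stroke library lay far under the controls. It fell by 2.54 ± 0.40 (SE) on the log2 scale, adjusted p = 0.0262, which is 5.83-fold. taVNS minus PSCI was 1.04, with a 95% interval of -0.14 to 2.22 (adjusted p = 0.293).

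Npas4 (NCBI gene 266734), a factor that neurons induce on calcium entry, read 11.1, 7.01 and 3.09 CPM in control, 0.341, 0.51 and 0.457 in PSCI and 0.771, 2.59 and 0.615 in taVNS. The controls themselves spread widely, and taVNS replicate 2 came close to control replicate 3. It fell by 3.20 ± 0.50 (SE), adjusted p = 0.0258. Nr4a2 (Nurr1, NCBI gene 54278), an orphan nuclear receptor, was more abundant and tighter, with 68.7, 55.2 and 72.1 CPM in control, 25.6, 26.8 and 31.4 in PSCI and 39.7, 42.8 and 28.8 in taVNS. It fell by 1.02 ± 0.14 (SE), adjusted p = 0.0163, and the 2 stroke groups overlapped.

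The other 5 separated members did not pass. Egr1 read 38.4, 32.2 and 28.6 CPM in control, 18.9, 7.14 and 15.8 in PSCI and 16, 19.9 and 12.5 in taVNS, and its change was -1.14 ± 0.26 (SE), adjusted p = 0.087. All 6 stroke libraries were clear of control. Arc, a synaptic protein that controls receptor uptake, read 135, 110.3 and 72.4 CPM in control, 37.8, 9.88 and 58.9 in PSCI and 34.4, 70.5 and 38.3 in taVNS, with adjusted p = 0.19. PSCI replicate 2 was the lowest library for Egr1, Arc and Nr4a1. Fos, the best known gene of the class, was not separated: it read 18.4, 11 and 12.5 CPM in control, 4.02, 19.2 and 10.6 in PSCI and 4.13, 4.2 and 1.3 in taVNS, with PSCI replicate 2 above every control. Dusp5 and Homer1 were separated in CPM but not in RPKM.

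The 10 markers of excitatory neurons held no separated gene, against 5.13% of all tested genes. Their sum was 7015 to 8471 CPM in control, 3983 to 8829 in PSCI and 6374 to 9121 in taVNS, so it overlapped between the groups, with PSCI replicate 2 lowest. Dentate granule cell markers summed to 425 to 583 CPM in control, 287 to 435 in PSCI and 369 to 476 in taVNS. The part of the number of neurons in the lower immediate early genes was not tested.

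The promoters of Egr2 and Dusp5 are shown because both hold the CArG box, the site of serum response factor, in the group of genes that lay below control together. A CArG box was in 3 of the 7 promoters found for the 8 separated immediate early genes (Egr1, Egr2 and Dusp5) and in 152 of 12016 promoters (1.26%). The cyclic AMP response element TGACGTCA was in none of the 7 and in 3.08% of all promoters. Sequences are RefSeq's for GRCr8, chr20:21054392-21054691 on the minus strand for Egr2 and chr1:262543524-262543823 on the plus strand for Dusp5, and capitals mark the CArG boxes.
Egr2: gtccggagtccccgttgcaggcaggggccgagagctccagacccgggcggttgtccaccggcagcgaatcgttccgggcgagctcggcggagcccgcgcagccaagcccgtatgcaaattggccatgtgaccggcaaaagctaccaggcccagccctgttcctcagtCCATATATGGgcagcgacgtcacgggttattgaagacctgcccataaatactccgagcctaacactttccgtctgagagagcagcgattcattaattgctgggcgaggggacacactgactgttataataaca
Dusp5: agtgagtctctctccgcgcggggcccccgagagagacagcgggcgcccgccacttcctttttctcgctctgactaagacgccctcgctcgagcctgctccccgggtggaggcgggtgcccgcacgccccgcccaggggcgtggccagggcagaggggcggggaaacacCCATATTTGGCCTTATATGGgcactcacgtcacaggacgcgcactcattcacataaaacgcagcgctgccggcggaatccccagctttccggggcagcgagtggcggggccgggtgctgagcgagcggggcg
Egr2 holds 1 box and Dusp5 2 that adjoin. Neither the motif nor its absence says which factor acted in these rats.

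**Figure D5:**
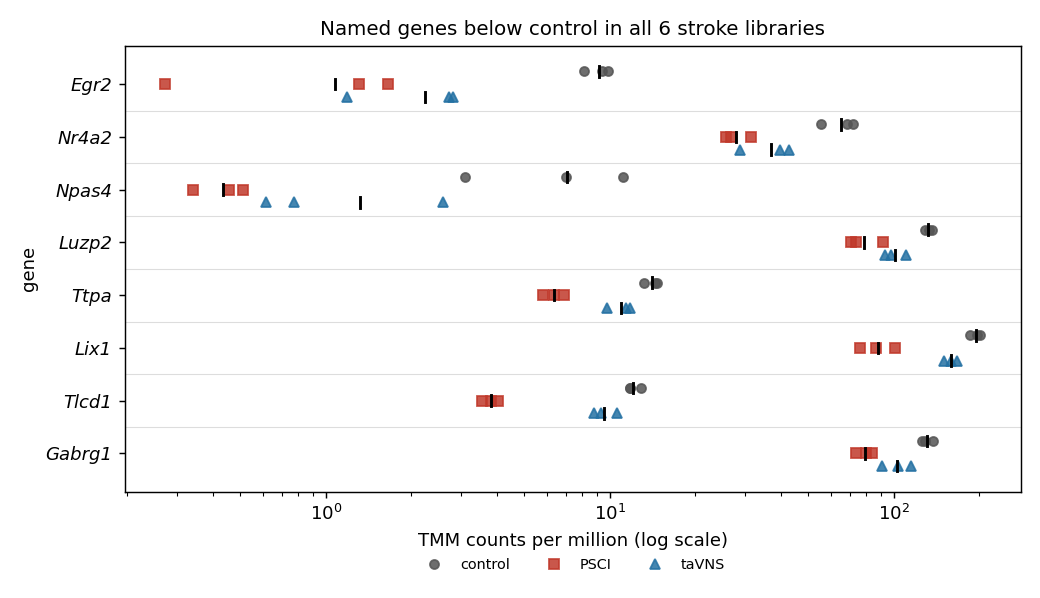
TMM CPM (log scale) of the 8 lower genes named by the rule, 1 point per library, 3 libraries per group; vertical ticks are arithmetic means. All stroke points lie left of all control points, and the taVNS points lie between PSCI and control except for Egr2 and Nr4a2, where they mix with PSCI.

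Cholesterol synthesis was the other list with many lower genes. Of 17 tested, 6 were separated lower (Hmgcs1, Idi1, Msmo1, Sc5d, Insig1 and Nsdhl), against 2.1% of all tested genes, and none higher. In the average edgeR called 0 of the 17, with 11 at an unadjusted p under 0.05, DESeq2 called 5 and limma-voom 0. Between taVNS and PSCI edgeR called 0 (1 at an unadjusted p under 0.05), and DESeq2 and limma-voom 0. The median log2 change of the list was -0.30, with -0.24 in PSCI and -0.37 in taVNS. Hmgcs1, which makes the HMG-CoA that the pathway starts from, read 528, 408 and 448 CPM in control, 291, 272 and 378 in PSCI and 306, 327 and 274 in taVNS, with the stroke groups mixed. Its change was -0.58 ± 0.13 (SE), adjusted p = 0.0767, and taVNS minus PSCI had a 95% interval of -0.39 to 0.29. Msmo1, a sterol methyl oxidase, read 198, 158 and 166 CPM in control, 107, 88.6 and 124 in PSCI and 128, 145 and 122 in taVNS. Sc5d, which acts near the end of the path, read 166, 166 and 172 CPM in control, 127, 94.9 and 129 in PSCI and 136, 146 and 128 in taVNS, with tight controls above every stroke library.

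Sqle, the squalene epoxidase, was not separated and read 86.5, 65.4 and 79 CPM in control, 73.5, 67.1 and 85.4 in PSCI and 63.9, 64.2 and 59 in taVNS. The sterol response motif TCACNCCAC was in none of the 6 promoters of the separated genes and in 1.11% of all promoters. Oligodendrocyte and myelin genes, from cells that make much of the brain's cholesterol, had 0 of 14 members separated, against 5.13% of all tested genes.

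The remaining lower named genes fell by 0.53 to 1.00 on the log2 scale in the average, with tight libraries. Tlcd1, a membrane protein of lipid composition, read 12.8, 11.8 and 11.8 CPM in control, 3.54, 3.82 and 4.05 in PSCI and 9.32, 8.81 and 10.6 in taVNS and fell by 1.00 ± 0.12 (SE), adjusted p = 0.00781. taVNS lay between the other groups and above PSCI, with a difference of 1.33 ± 0.14 (SE), adjusted p = 0.00232. Lix1 read 201, 196 and 186 CPM in control, 101, 75.8 and 86.6 in PSCI and 168, 149.7 and 158 in taVNS and Ttpa, the transfer protein for vitamin E, 14.5, 14.7 and 13.2 CPM in control, 6.88, 6.37 and 5.81 in PSCI and 11.8, 11.4 and 9.77 in taVNS. They fell by 0.72 ± 0.09 and 0.76 ± 0.11 (SE), adjusted p = 0.0122 and 0.0231, and both were higher in taVNS than in PSCI.

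Gabrg1, the gamma-1 subunit of the GABA-A receptor, read 126, 129 and 137 CPM in control, 83.6, 73.9 and 79.9 in PSCI and 115, 91.1 and 103 in taVNS and fell by 0.53 ± 0.08 (SE), adjusted p = 0.0262. It was the one separated gene among 12 tested GABA-A subunits, against 5.13% of all tested genes. Luzp2, a leucine zipper protein, read 136, 133 and 129 CPM in control, 73.7, 70.7 and 91.8 in PSCI and 111, 98.1 and 93.1 in taVNS and fell by 0.57 ± 0.10 (SE), adjusted p = 0.0356. For both genes taVNS lay above PSCI in mean without passing the test between the groups (adjusted p = 0.0581 and 0.109).

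Most called genes of cell death were not separated. Of 22 tested genes of apoptosis and autophagy 11 were called higher and 1 lower, against 0.674% and 0.0943% of all tested genes, and Casp8 was among the few that were separated, all of them higher. The list's median log2 change was 1.97 in PSCI and -0.07 in taVNS. Casp8, the initiator caspase of death receptors, read 0.69, 1.2 and 0.735 CPM in control, 6.48, 9.69 and 9.53 in PSCI and 1.68, 2.03 and 1.98 in taVNS and rose by 2.19 ± 0.27 (SE), adjusted p = 0.00963. Nlrp3, the sensor of an inflammasome, read 4.14, 3.12 and 2.2 CPM in control, 24.3, 25 and 23.4 in PSCI and 5.26, 6.85 and 5.47 in taVNS and rose by 1.91 ± 0.20 (SE), adjusted p = 0.00485. Counts and RPKM of Casp8 and Nlrp3 disagree by 0.44 and 0.95 on the log2 scale in 1 group against the others, more than the 0.25 allowed for the named genes, so their folds depend on which table is read. Ikbkb, the third such gene among the 71, is a kinase of the NF-kB path. In all, 132 of 13626 genes that could be examined disagreed in this way, 9 of them separated. The calls depended on them more than these counts show. With the 132 left out of the fit, 58 genes were called higher and 9 lower in the average, in place of 100 and 14. Of the 71 called and separated genes 50 then remained so.

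Of 23 genes of cell division, 2 were called in the average (Top2a and Cenpf) and 3 were separated (Plk1, Mcm5 and Rrm2), while all 23 were called lower in taVNS than in PSCI. Over all tested genes these shares were 0.674% called higher, 3.03% separated higher and 4.91% lower in taVNS. Mcm5, a part of the replicative helicase, read 1.38, 1.56 and 0.808 CPM in control, 12.1, 47.4 and 22.5 in PSCI and 1.96, 1.75 and 2.12 in taVNS, so its taVNS libraries exceeded control only slightly.

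Of the 49 lists 20 held no separated gene. Among them were the 4 lists of hippocampal neurons (0 of 41 tested genes) and the lists of acetylcholine, monoamine and glutamate receptors and of potassium, calcium and sodium channels (0 of 97). Endothelium, oligodendrocyte precursors, choroid plexus, red blood cells and cytosolic ribosomal proteins held none either. Over all tested genes the share separated was 5.13%, so a short list can hold none. The interneuron markers summed to 1500 to 1809 CPM in control, 1150 to 1435 in PSCI and 1373 to 1724 in taVNS. Against control edgeR called 2 of the 14 interneuron markers lower in PSCI, where 9.85% of all tested genes were called in either direction. PSCI did not overlap control in the sum. The red blood cell markers summed to 121 to 135 CPM in control, 38.4 to 111 in PSCI and 190 to 444 in taVNS, so the stroke groups stood on opposite sides of control.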

How the data were processed

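Poly(A)-selected RNA of hippocampus was sequenced in 3 control, 3 PSCI and 3 taVNS libraries. The authors deposited 1 table of estimated (expected) counts and 1 table of RPKM per library, and the estimated counts are reads assigned to genes without scaling. The RPKM values deposited by the authors are scaled for gene length and depth. The submitters' processing notes name the tools HISAT2 2.0.4 and RSEM 1.2.8 and the build mRatBN7.2. The annotation and filters are not given in the sources used here. Between 91.1% and 91.6% of the counts in a library were whole.

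Counts were rounded and filtered with filterByExpr (14840 of 18733 genes kept), scaled by TMM and fitted with edgeR 4.0.16 (R 4.3.3) by group over all 9 libraries, with 6 residual degrees of freedom. The contrast was the mean of PSCI and taVNS minus control, and taVNS minus PSCI came from the same fit. SE, 95% intervals and Benjamini-Hochberg adjusted p over all tested genes are from edgeR's quasi-likelihood test, called under 0.05. Log2 CPM used a prior count of 2. A count of 0 allows up to 3 counts, 0.195 to 0.218 CPM, for counting error only. Alternatives used DESeq2 1.42.0, limma 3.58.1 (log2 of RPKM plus 0.1 or 1), other filters and scalings and left-out libraries.

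The genes, the 49 lists (786 symbols, 776 found, 9 of them by synonym, 729 tested) and the tests were chosen with earlier results of these data known. Named genes were up to 14 widest gaps and up to 6 largest called differences between taVNS and PSCI in each direction. Only 8 lower genes were eligible, and edgeR called 0 separated genes with taVNS farther from control than PSCI. Up to 4 called and separated genes per list were also named, by smallest p. Gap and difference genes also had to be called, of at least 1 CPM on average, separated in RPKM, without a disagreement of counts and RPKM above 0.25 log2 (examined from 30 counts and 0.2 RPKM), and not an unnamed locus, which left 63 genes. Further list members are given as values, chosen after their values were seen. Names and promoters were matched to RefSeq tables of GRCr8 (18486 of 18733 identifiers found). Results for some single members of the lists are not reported here.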

Additional observations from a re-analysis of the deposited data

Results flagged for a closer look

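Of the 36 named genes 26 differed between the stroke groups in edgeR's test of taVNS minus PSCI, with adjusted p from 0.000872 to 0.0329. In 22 of them, all higher after stroke, taVNS was lower than PSCI. On the log2 scale, taVNS minus PSCI was Cd14 (-4.33), Vim (-3.95), Aspg (-3.32), Glipr1 (-3.23), Lrrc25 (-3.18), Clec12a (-3.04), Mmp19 (-2.27), Serping1 (-2.20), Casp8 (-2.17), Nlrp3 (-2.05) and Myo1f (-1.90). For the others of these genes it was Fes (-1.79), Foxj1 (-1.77), RT1-DMb (-1.76), Gbp2 (-1.76), Irf8 (-1.52), Csf3r (-1.48), Itgam (-1.37), Anxa3 (-1.35), Igsf10 (-1.35), Draxin (-1.20) and C1qa (-1.19). In 4 genes that were lower after stroke taVNS was higher than PSCI: Tlcd1 (1.33), Lix1 (0.85), Mfge8 (0.82) and Ttpa (0.79). Cd14, Vim, Aspg, Glipr1, Lrrc25 and Clec12a were named for their difference between taVNS and PSCI toward control, so its direction in these 6 is set by that choice. Groups of 3 libraries are too small for a test of single outlying libraries.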

How the results depend on the processing

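In the edgeR fit 100 genes were higher and 14 lower in the stroke average, 450 and 312 were separated, and 127 of these differed between taVNS and PSCI. DESeq2 called 621 higher and 185 lower genes and 202 differing ones, limma-voom 32, 7 and 76, and the fit of the 6 stroke libraries as 1 group 0 and 0 (1539 at an unadjusted p under 0.05, smallest adjusted p = 0.477). On RPKM with a pseudocount of 0.1, 154 genes were called higher, and with 1, 5 were called lower; 169 were separated lower on RPKM and 181 on counts without TMM factors, a setting chosen after seeing the data. With genes left out whose counts and RPKM disagree, 58 were called higher and 9 lower. Without PSCI replicate 2 and taVNS replicate 3, 650 genes were separated lower and 73 separated genes differed. A required gap of 0.5 left 29 and 3 separated genes, and of 1 left 3 and 1. The cause of these shifts was not tested. Leaving out 1 library at a time gave 15 to 639 genes called higher, 1 to 103 called lower, 505 to 1018 separated higher, 338 to 966 separated lower, the rule being easier to meet with 8 libraries, and 52 to 243 differing. Upper-quartile scaling and the other filters on counts left these counts within 1.5 times.

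The replicate numbers were not taken as pairs in the main fit. Same-numbered libraries correlated at -0.468 to 0.255 in their deviations from group means, and differently numbered ones at -0.388 to 0.458. With 3 libraries per group these correlations cannot decide whether the numbers pair the samples. With a replicate block edgeR called 72 genes higher and 9 lower, and 96 separated genes differed.

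Over the named genes, 301 of 1272 alternative values lost the call and none changed sign. The separated complement genes were 6, the cholesterol genes 6 and the class I genes 8 or 9 under every scaling tried, against 6 to 8 for the immediate early genes and 1 to 3 for the homeostatic astrocyte genes. Levels near 0.2 CPM, as in the controls of Cd14, Glipr1 and Lrrc25, are limited by depth.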
